A study of Mus musculus with 15 samples.

Results

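Collagen genes were followed in RNA-seq counts from the lungs of 15 mice. A row was taken as a collagen gene when its symbol had the form Col, a number, the letter a and a number, which gave 44 of the 24054 rows of the count table. By the structure of their products they were 11 fibrillar collagens, 8 basement membrane collagens (6 chains of type IV, with Col15a1 and Col18a1) and 25 others. A filter on low counts left 37 of the 44 for testing (9 fibrillar, 8 basement membrane and 20 other collagens). The animals were female wild type Balb mice in 3 groups of 5. The saline group was sham sensitized with saline and received an antibody of the isotype control. Mice of the OVA group were sensitized to ovalbumin by intraperitoneal injection, challenged with ovalbumin as a nebulized aerosol, and also received the isotype control antibody. The anti-IL-4Ra group had ovalbumin together with a monoclonal antibody to mouse IL-4Ra at 30 mg/kg. The sources used here give no age, timing or batch, and no group with saline and the IL-4Ra antibody was analysed. The design asks what ovalbumin does to lung RNA and what blocking IL-4Ra changes in it.

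Collagens are trimers of long alpha chains wound in a triple helix, and each gene codes for 1 chain. Fibrillar collagens (types I, III and V above all) form the tensile fibres around airways and vessels, type IV chains form the sheet-like network of basement membranes, and type VI forms beaded microfilaments around cells. Other families coat fibrils (the FACIT collagens), span the plasma membrane, or anchor epithelium to the stroma. Collagen deposition under the airway epithelium is a known feature of asthma, and IL-4 and IL-13, whose receptors share IL-4Ra, are known to act on fibroblasts and epithelium.

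To show what regulatory sequence these genes carry, the 250 bases before the start site of selected genes are printed, from RefSeq's promoter table (build GRCm38.p6). They are 3 fibrillar chains (Col1a2, Col3a1 and Col24a1) and the neighbouring type VI chains Col6a5 and Col6a6, whose values are described below. Sequences run 5′ to 3′ on the strand of the gene, and capitals mark matches to any of 4 motifs searched on both strands.
Col1a2, chr6:4505368-4505617, plus strand: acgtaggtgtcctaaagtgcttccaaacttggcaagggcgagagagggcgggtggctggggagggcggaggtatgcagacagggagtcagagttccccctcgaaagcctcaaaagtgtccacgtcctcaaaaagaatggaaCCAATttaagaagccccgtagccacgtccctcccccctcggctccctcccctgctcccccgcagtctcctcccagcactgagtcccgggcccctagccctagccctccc
Col3a1, chr1:45311288-45311537, plus strand: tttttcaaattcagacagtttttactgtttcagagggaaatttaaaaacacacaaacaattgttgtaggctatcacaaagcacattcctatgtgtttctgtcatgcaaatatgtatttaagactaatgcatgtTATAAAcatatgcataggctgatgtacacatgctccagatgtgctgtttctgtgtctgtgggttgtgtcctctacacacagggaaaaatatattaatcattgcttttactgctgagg
Col24a1, chr3:145292222-145292471, plus strand: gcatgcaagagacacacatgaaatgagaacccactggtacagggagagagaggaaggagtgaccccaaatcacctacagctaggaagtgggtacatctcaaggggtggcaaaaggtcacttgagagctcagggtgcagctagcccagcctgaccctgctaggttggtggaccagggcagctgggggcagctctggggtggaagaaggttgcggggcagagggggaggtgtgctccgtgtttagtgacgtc
Col6a5, chr9:105960644-105960893, minus strand: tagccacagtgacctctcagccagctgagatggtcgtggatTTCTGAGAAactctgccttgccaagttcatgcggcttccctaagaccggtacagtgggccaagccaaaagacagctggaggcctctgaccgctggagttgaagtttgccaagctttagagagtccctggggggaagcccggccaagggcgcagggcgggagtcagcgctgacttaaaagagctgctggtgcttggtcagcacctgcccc
Col6a6, chr9:105828086-105828335, minus strand: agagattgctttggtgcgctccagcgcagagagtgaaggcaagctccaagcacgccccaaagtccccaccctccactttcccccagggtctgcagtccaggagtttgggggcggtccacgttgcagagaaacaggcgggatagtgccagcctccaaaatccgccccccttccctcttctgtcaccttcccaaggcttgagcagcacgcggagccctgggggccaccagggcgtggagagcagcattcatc

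The motifs were TTCNNNNGAA, the spacing bound by STAT6 (the transcription factor that IL-4Ra activates), TTCNNNGAA, the spacing of other STAT factors, and the core promoter motifs CCAAT and TATAAA. The table matched 35 of the 44 collagen genes, with 38 windows. None of the 38 windows held TTCNNNNGAA, which 5.85% of all 32851 promoters in the table held in the same length. The shorter TTCNNNGAA stood in Col6a5, 209 bases before the start, and in Col28a1, and in 7.02% of all promoters. CCAAT was found in 13 collagen genes, among them Col1a2 at 109 bases before the start, and in 33.8% of all promoters. TATAAA was found in 5 collagen genes, among them Col3a1 at 117 bases before the start, and in 12.4% of all promoters. Col24a1 and Col6a6 held none of the 4 motifs in these windows. A match describes letters in the sequence and is not evidence of binding.

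Depth and tissue makeup differed between the groups. Expected counts per library summed to between 16774285 and 27570666 in the saline group, between 10042825 and 14706131 in the OVA group and between 12317805 and 16914475 in the anti-IL-4Ra group. Rn45s, the ribosomal RNA precursor, took between 1.19 and 2.88% of counts (saline), 4.31 and 12.4% (OVA) and 1.65 and 12.4% (anti-IL-4Ra), so every OVA library was above every saline library. Lung markers were present (Ager, a marker of alveolar type 1 cells, averaged 1331 CPM with saline). Markers of other tissue varied between libraries of every group, and adipose markers were highest in 2 libraries. Saline replicate 1 had the highest summed adipose (1073 CPM) and cardiac muscle (1959 CPM) markers of all libraries, and anti-IL-4Ra replicate 4 had 492 CPM of adipose, 238 CPM of Schwann cell and 58.7 CPM of skeletal muscle markers. The OVA group held such markers too, with cardiac muscle sums of 1312 CPM in replicate 1 and 1741 CPM in replicate 3. OVA replicate 3 also had the highest cartilage sum of all libraries (146 CPM). Saline replicate 1 and anti-IL-4Ra replicate 4 are called the 2 libraries that stand apart, a choice made after seeing the data. Where leaving out these 2 together changed a call, the value without them is given as well. In whole-lung RNA, fewer cells of a type and less RNA per cell cannot be told apart.

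Levels are given as CPM, the counts of a gene scaled to a common library total (with TMM factors), in the order of replicates 1 to 5, and group values are mean ± SD with n = 5. Log2 fold changes carry their standard error (SE). Adjusted p is from edgeR's quasi-likelihood test over all 15905 genes tested, with Benjamini-Hochberg adjustment, and a gene was called higher or lower at an adjusted p under 0.05.

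With OVA, collagens shifted by class. Of the tested genes 6 of 9 fibrillar collagens and 4 of 6 type VI chains rose against saline, while 3 of 6 type IV chains and 3 of 4 transmembrane collagens fell. Of the 37 tested collagens 14 were called higher and 7 lower, where 19.3% of all genes tested were called higher and 17.8% lower (37.1% in either direction). The groups did not overlap for 8 collagens above and 6 below saline, against 12.1% and 14.5% of all genes (26.6% in either direction). At an unadjusted p under 0.05 the numbers were 26 of 37 collagens and 46.7% of all genes. The median log2 fold change was 0.91 over the 9 fibrillar collagens, -0.35 over the 8 basement membrane collagens and 0.52 over the 20 others, beside 0.02 over all genes tested.

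**Figure D1:**
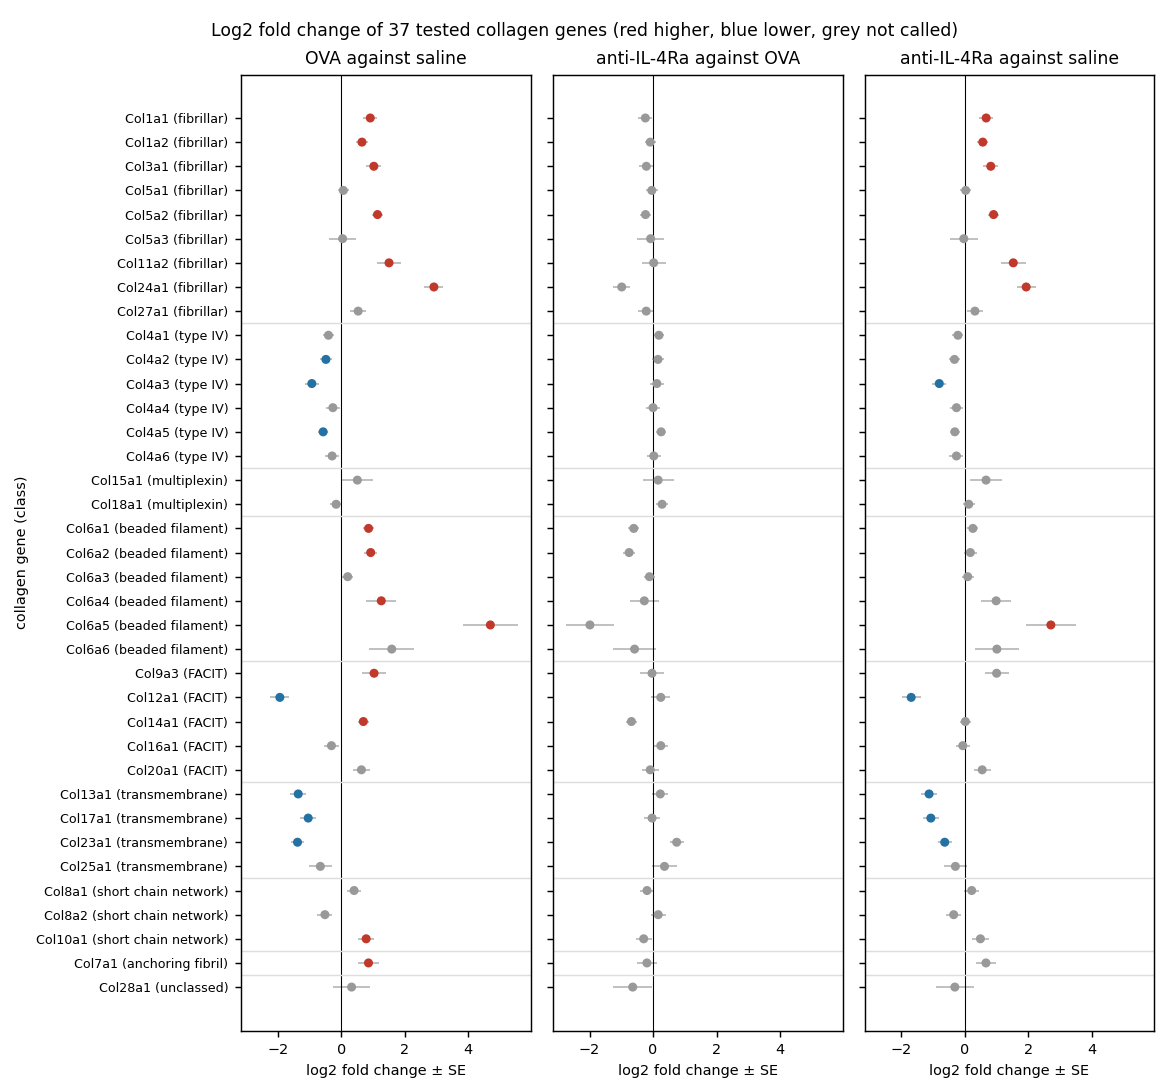
Log2 fold change ± SE of the 37 tested collagen genes in the 3 comparisons, ordered by class, with called genes in red (higher) or blue (lower) and the rest in grey. With OVA against saline 14 genes are red and 7 blue, with anti-IL-4Ra against OVA none is coloured, and with anti-IL-4Ra against saline 7 are red and 5 blue.

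Among the fibrillar collagens 6 of 9 were called higher with OVA and none lower, and all 9 fold changes were above 0. Col3a1, the chain of type III collagen, was the most abundant collagen per length of exon with OVA. It measured 1311, 659.6, 602, 880.1 and 1026 CPM in the saline group, 1541, 1569, 2241, 1927 and 1839 CPM in the OVA group and 1370.0, 1528, 1249, 2435 and 1290.0 CPM in the anti-IL-4Ra group. Every OVA library lay above every saline library, and the gene rose 2.04-fold with OVA (log2 fold change 1.03 ± 0.23, adjusted p = 0.00331). Type I collagen, the main load-bearing fibril, is built from Col1a1 and Col1a2. Col1a1 measured 508, 278, 285, 306 and 357 CPM in the saline group, 488, 669, 982, 589.9 and 534 CPM in the OVA group and 618, 386, 577, 722 and 454 CPM in the anti-IL-4Ra group. Col1a2 measured 691, 435, 464, 507 and 581 CPM in the saline group, 655, 794, 1103, 846 and 810.0 CPM in the OVA group and 819.8, 626, 729, 1052 and 729 CPM in the anti-IL-4Ra group. The highest saline library, replicate 1, overlapped the lowest OVA library for both chains. Col1a1 rose 1.88-fold (log2 fold change 0.91 ± 0.23, adjusted p = 0.00551) and Col1a2 rose 1.57-fold (log2 fold change 0.65 ± 0.18, adjusted p = 0.00922).

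Type V collagen joins type I in fibrils and sets their diameter. Its chain Col5a2 measured 183, 124, 116, 154 and 152 CPM in the saline group, 248, 260.1, 319.6, 359.8 and 420.4 CPM in the OVA group and 303, 283, 227, 338 and 212 CPM in the anti-IL-4Ra group. All OVA and all anti-IL-4Ra libraries were above all saline libraries, and the OVA mean was 2.21-fold that of saline (log2 fold change 1.14 ± 0.18, adjusted p = 0.000279). The partner chain Col5a1 did not pass the test, at 113 ± 21.1 CPM (saline), 118 ± 22.5 CPM (OVA) and 115 ± 32.5 CPM (anti-IL-4Ra) (log2 fold change 0.07 ± 0.18, adjusted p = 0.802 for OVA against saline). Col5a3 averaged 13.1 ± 7.87 CPM (saline), 13.5 ± 3.68 CPM (OVA) and 12.8 ± 10.7 CPM (anti-IL-4Ra), with its highest value, 31.8 CPM, in anti-IL-4Ra replicate 4 (adjusted p = 0.948 for OVA against saline).

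The largest fold among the fibrillar collagens was that of Col24a1, a minor fibrillar chain. Its level was low in every library. Col24a1 measured 1.09, 0.620, 0.757, 1.36 and 0.977 CPM in the saline group, 5.91, 8.93, 5.94, 6.63 and 9.03 CPM in the OVA group and 5.21, 4.06, 3.53, 3.97 and 1.65 CPM in the anti-IL-4Ra group. All OVA libraries lay above all others, all anti-IL-4Ra libraries lay between the OVA and the saline libraries, and the saline libraries were lowest. Against saline the gene rose 7.55-fold with OVA (log2 fold change 2.92 ± 0.30, adjusted p = 1.64e-05). Col11a2, a chain best known from cartilage fibrils, measured 1.88, 1.78, 3.89, 2.89 and 1.83 CPM in the saline group, 4.70, 10.7, 4.86, 5.06 and 9.64 CPM in the OVA group and 7.02, 2.82, 7.92, 13.0 and 4.49 CPM in the anti-IL-4Ra group. Its OVA libraries did not overlap the saline libraries, and it rose 2.84-fold (log2 fold change 1.50 ± 0.39, adjusted p = 0.00713). Markers of cartilage do not all move with it. Of 10 cartilage markers 4 could be tested, of which Hapln1 was called higher and Cytl1 lower, and 7 of the 10 averaged under 1 CPM with OVA. Their summed level ran from 32.0 to 71.6 CPM with saline and from 20.9 to 146 CPM with OVA, and their part in the result was not tested. Col27a1, the last tested fibrillar chain, averaged 23.0 ± 8.24 CPM (saline), 33.3 ± 7.97 CPM (OVA) and 28.6 ± 8.78 CPM (anti-IL-4Ra) and did not pass the test (adjusted p = 0.103).

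**Figure D2:**
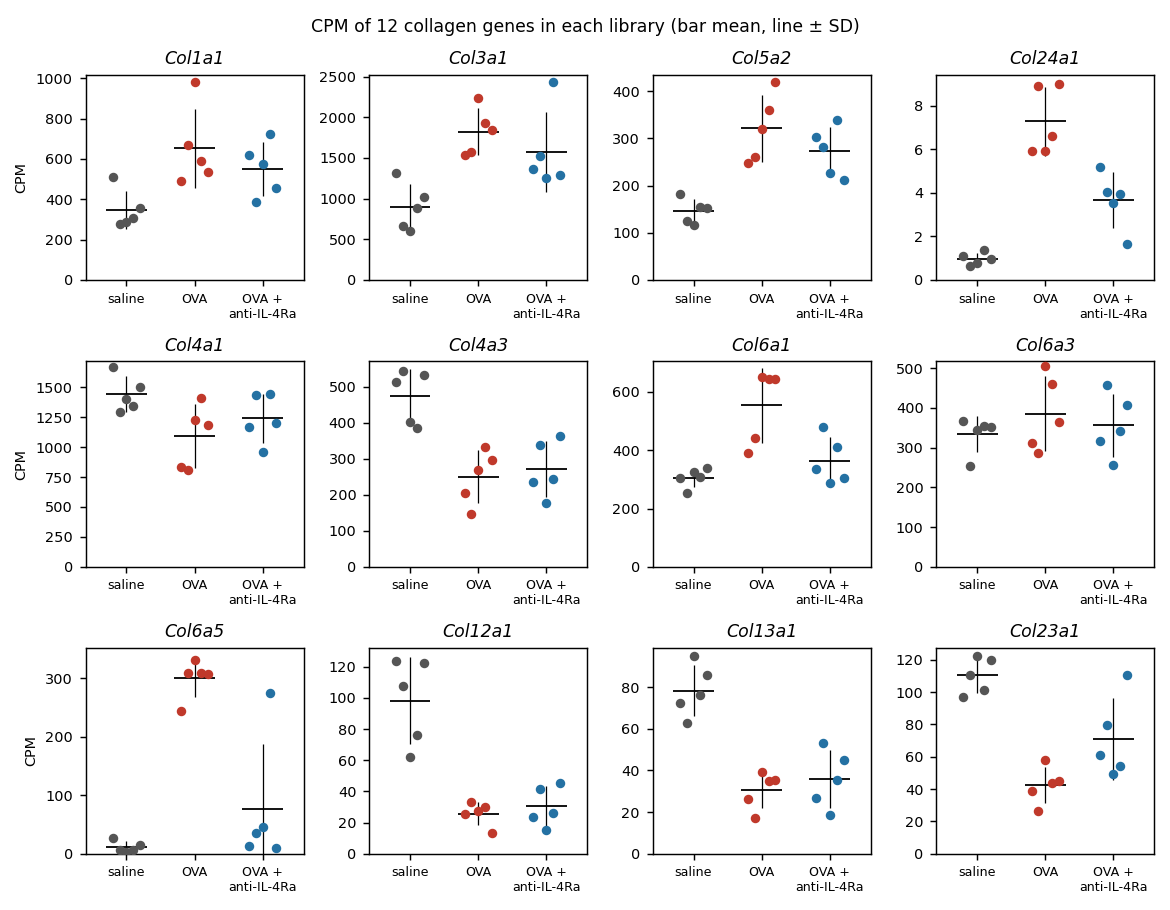
CPM of 12 collagen genes in each library, with the group mean as a bar and ± SD as a line, on linear axes from 0. Col24a1 libraries with anti-IL-4Ra sit between the OVA and saline libraries, and in Col6a5 1 anti-IL-4Ra library (replicate 4, 275 CPM) sits at the OVA level while the other 4 lie between 9.15 and 45.1 CPM.

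Type VI chains, which assemble into beaded filaments near cell surfaces, had 4 of 6 members called higher with OVA and none lower (median log2 fold change 1.09). Col6a5, a chain that can take the place of Col6a3 in the trimer, showed the largest fold change of all 37 collagens. Col6a5 measured 27.1, 6.78, 2.67, 7.08 and 14.1 CPM in the saline group, 245, 309, 331, 309 and 307 CPM in the OVA group and 13.9, 35.1, 45.1, 275 and 9.15 CPM in the anti-IL-4Ra group. The OVA libraries lay within a narrow band far above all saline libraries, and the anti-IL-4Ra libraries were spread from the saline level to the OVA level. The fold change with OVA was 25.9 (log2 fold change 4.69 ± 0.86, adjusted p = 0.000838). In saline replicate 1, where adipose markers were highest, Col6a5 was also the highest of its group, and without that library and anti-IL-4Ra replicate 4 the log2 fold change was 5.26 ± 0.54 (adjusted p = 0.000113).

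The other alternative chains are encoded beside Col6a5. Col6a6 measured 29.2, 7.17, 5.05, 7.51 and 16.4 CPM in the saline group, 26.7, 42.2, 60.1, 28.9 and 39.4 CPM in the OVA group and 5.54, 8.20, 15.2, 94.7 and 7.84 CPM in the anti-IL-4Ra group. With all libraries it was not called by edgeR (log2 fold change 1.59 ± 0.70, adjusted p = 0.0862) or DESeq2 (adjusted p = 0.0819), and was called higher by limma-voom (1.82 ± 0.59, adjusted p = 0.0245) and by edgeR with a cardiac marker score as covariate (2.17 ± 0.65, adjusted p = 0.0187). EdgeR also called it without saline replicate 1 (2.13 ± 0.74, adjusted p = 0.0403), without anti-IL-4Ra replicate 4 (1.55 ± 0.43, adjusted p = 0.0102) and without both (2.09 ± 0.37, adjusted p = 0.00138). Col6a4 measured 3.12, 2.13, 3.69, 5.12 and 2.56 CPM in the saline group, 9.70, 16.4, 3.92, 3.21 and 6.67 CPM in the OVA group and 3.80, 4.75, 6.19, 14.6 and 3.46 CPM in the anti-IL-4Ra group. Its groups overlapped, and its call (log2 fold change 1.26 ± 0.47, adjusted p = 0.0441) held in 5 of the 15 fits that left out 1 library. Reads common to Col6a4, Col6a5 and Col6a6 are divided by estimate in the counting, so their separate levels carry that uncertainty.

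Col6a1 and Col6a2, the obligate chains of type VI collagen, rose together. Col6a1 measured 306, 252, 324, 309 and 338 CPM in the saline group, 390.4, 441, 653, 645 and 646 CPM in the OVA group and 337, 480.4, 287, 409.9 and 305 CPM in the anti-IL-4Ra group. Col6a2 measured 249.7, 192, 241, 227 and 257 CPM in the saline group, 311, 354, 583, 553 and 415 CPM in the OVA group and 222, 363, 198, 316 and 215 CPM in the anti-IL-4Ra group. For both genes each OVA library was above each saline library. The rise was 1.81-fold for Col6a1 (log2 fold change 0.86 ± 0.18, adjusted p = 0.00179) and 1.90-fold for Col6a2 (log2 fold change 0.93 ± 0.20, adjusted p = 0.00244). Their usual partner Col6a3 measured 367, 255, 345, 355 and 353 CPM in the saline group, 312, 285, 504, 460.2 and 364 CPM in the OVA group and 317, 458, 256, 342 and 408 CPM in the anti-IL-4Ra group. Its groups overlapped and no difference was called (log2 fold change 0.20 ± 0.18, adjusted p = 0.404).

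Type IV collagen is the network of basement membranes, and in the lung Col4a3, Col4a4 and Col4a5 form the network shared by alveolar epithelium and capillaries. All 6 chains had a log2 fold change below 0 with OVA, and 3 were called lower. Col4a3 measured 513, 543, 403, 386 and 531 CPM in the saline group, 204, 147, 269.6, 332 and 298 CPM in the OVA group and 236, 337, 176, 244 and 364 CPM in the anti-IL-4Ra group. The saline libraries all lay above the libraries of the other 2 groups, and with OVA the gene was 1.90-fold lower (log2 fold change -0.93 ± 0.23, adjusted p = 0.00504). Col4a5 measured 185, 209.5, 202, 189 and 219 CPM in the saline group, 113, 92.4, 165, 149.6 and 156 CPM in the OVA group and 151, 168, 111, 194 and 183 CPM in the anti-IL-4Ra group. Its OVA libraries were all below the saline libraries (log2 fold change -0.57 ± 0.17, adjusted p = 0.0141). The third chain of that network, Col4a4, measured 256, 273, 288, 279 and 274 CPM in the saline group, 176, 136, 216, 229 and 384 CPM in the OVA group and 228, 260.1, 162, 251 and 239 CPM in the anti-IL-4Ra group. Its saline libraries were close together and its OVA libraries spread to both sides of them (log2 fold change -0.26 ± 0.21, adjusted p = 0.344).

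Col4a1 and Col4a2 form the ubiquitous type IV network and are transcribed from a shared promoter region. Col4a1, the most abundant collagen per length of exon with saline, measured 1672, 1295, 1403, 1346 and 1499 CPM in the saline group, 829, 805, 1224, 1412 and 1185 CPM in the OVA group and 1167, 1431, 958, 1442 and 1201 CPM in the anti-IL-4Ra group. Col4a2 measured 1150.0, 915, 1016, 915 and 1038 CPM in the saline group, 530.1, 516, 852, 939 and 764 CPM in the OVA group and 753, 949, 617, 892 and 798 CPM in the anti-IL-4Ra group. The OVA libraries overlapped the saline libraries in both genes. Col4a2 was called lower (log2 fold change -0.48 ± 0.18, adjusted p = 0.0420), a call that held in 9 of 15 fits without 1 library and was lost without both libraries that stand apart (-0.48 ± 0.19, adjusted p = 0.0686), and Col4a1 was not (log2 fold change -0.40 ± 0.17, adjusted p = 0.0792). Col4a6 stayed low, at 3.78 ± 0.891 CPM (saline), 3.08 ± 0.738 CPM (OVA) and 3.13 ± 0.649 CPM (anti-IL-4Ra), with no call (log2 fold change -0.29 ± 0.22, adjusted p = 0.318). The multiplexins Col15a1 and Col18a1, which carry heparan or chondroitin sulfate chains and join basement membranes to stroma, had no call with all libraries. Col15a1 averaged 45.0 ± 37.9 CPM (saline), 64.0 ± 15.8 CPM (OVA) and 71.5 ± 58.6 CPM (anti-IL-4Ra), with its highest saline value (111 CPM) in replicate 1 and its highest anti-IL-4Ra value (176 CPM) in replicate 4. Its log2 fold change with OVA was 0.51 ± 0.49 (adjusted p = 0.438), 1.16 ± 0.43 without saline replicate 1 (adjusted p = 0.0516) and 1.12 ± 0.26 without both libraries, where it was called higher (adjusted p = 0.00482). Col18a1 averaged 83.3 ± 12.5 CPM (saline), 74.4 ± 25.7 CPM (OVA) and 90.6 ± 14.3 CPM (anti-IL-4Ra).

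Transmembrane collagens, which sit in the plasma membrane of epithelium and other cells, had 3 of 4 members called lower with OVA, all 3 without overlap. Col23a1 measured 97.2, 111, 122, 101 and 120.0 CPM in the saline group, 38.9, 26.6, 57.8, 43.7 and 45.2 CPM in the OVA group and 61.1, 80.0, 49.1, 54.1 and 111 CPM in the anti-IL-4Ra group. Col13a1 measured 72.5, 62.7, 94.9, 76.2 and 86.1 CPM in the saline group, 26.4, 17.1, 39.3, 34.9 and 35.5 CPM in the OVA group and 26.9, 53.4, 18.6, 35.4 and 45.1 CPM in the anti-IL-4Ra group. Col17a1, a part of the hemidesmosome that fixes epithelium to its basement membrane, measured 7.57, 7.29, 10.7, 9.15 and 9.96 CPM in the saline group, 3.49, 3.56, 6.35, 3.90 and 4.31 CPM in the OVA group and 3.22, 5.44, 2.46, 3.43 and 6.53 CPM in the anti-IL-4Ra group. In each of the 3 genes the lowest saline library exceeded the highest OVA library. With OVA, Col23a1 fell 2.60-fold (log2 fold change -1.38 ± 0.22, adjusted p = 0.000334), Col13a1 fell 2.56-fold (log2 fold change -1.36 ± 0.26, adjusted p = 0.00116) and Col17a1 fell 2.06-fold (log2 fold change -1.04 ± 0.26, adjusted p = 0.00528). Col25a1 was near the detection limit, at 0.752 ± 0.211 CPM (saline), 0.459 ± 0.168 CPM (OVA) and 0.617 ± 0.326 CPM (anti-IL-4Ra) (adjusted p = 0.169).

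The FACIT collagens, which bind to the surface of fibrils, moved apart. Col12a1 measured 123, 108, 61.9, 76.1 and 122 CPM in the saline group, 25.4, 32.9, 27.1, 29.8 and 13.1 CPM in the OVA group and 23.6, 41.7, 15.2, 26.0 and 45.4 CPM in the anti-IL-4Ra group. All saline libraries were above all others, and the gene fell 3.82-fold with OVA, the largest fall of any collagen (log2 fold change -1.93 ± 0.30, adjusted p = 0.000289). Col14a1, its close relative, measured 153, 121, 92.2, 116 and 142 CPM in the saline group, 154, 181, 206, 265 and 204 CPM in the OVA group and 127, 152, 84.0, 131 and 136 CPM in the anti-IL-4Ra group. Here the OVA libraries were all above both other groups, and the gene rose 1.62-fold (log2 fold change 0.70 ± 0.18, adjusted p = 0.00655). Col16a1 averaged 62.7 ± 10.3 CPM (saline), 50.6 ± 11.1 CPM (OVA) and 59.8 ± 24.6 CPM (anti-IL-4Ra), and Col20a1 averaged 6.73 ± 1.56 CPM (saline), 10.5 ± 3.52 CPM (OVA) and 9.83 ± 4.11 CPM (anti-IL-4Ra), neither with a call (adjusted p = 0.301 and 0.0751).

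The rest of the calls with OVA were close to the threshold. Col10a1, a short chain collagen known from growth plate cartilage, went from 5.33 ± 2.25 to 9.18 ± 2.48 CPM (log2 fold change 0.78 ± 0.26, adjusted p = 0.0266). Col7a1, the anchoring fibril chain, went from 10.9 ± 5.00 to 19.7 ± 9.53 CPM (log2 fold change 0.86 ± 0.33, adjusted p = 0.0493), and Col9a3 from 0.667 ± 0.194 to 1.37 ± 0.580 CPM (log2 fold change 1.03 ± 0.38, adjusted p = 0.0444). These calls held in 9, 3 and 4 of the 15 fits without 1 library, and all 3 were lost without saline replicate 1 and anti-IL-4Ra replicate 4 (0.60 ± 0.26, 0.66 ± 0.33 and 0.82 ± 0.37, adjusted p = 0.0901, 0.129 and 0.0942). Col8a1, Col8a2 and Col28a1 averaged between 1.17 and 20.0 CPM in any group and had no call.

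A group of 7 collagens did not pass the filter on low counts. The 5 libraries of a group held 11, 9 and 1 counts of Col2a1 with saline, OVA and anti-IL-4Ra, and 12, 53 and 16 of Col11a1. Col19a1 had 66, 30 and 26 counts, Col22a1 31, 11 and 26, Col26a1 27, 27 and 56, and Col9a2 22, 22 and 20. Col9a1 had 0 counts with saline, 18 with OVA and 13 with anti-IL-4Ra. A count of 0 is read against a floor of 3 counts, and the depth limits any comparison. Col9a1 measured 0, 0, 0, 0 and 0 CPM in the saline group, 0.227, 0.0827, 0.270, 0.274 and 0.615 CPM in the OVA group and 0.496, 0, 0.333, 0 and 0.114 CPM in the anti-IL-4Ra group, and Col11a1 measured 0.226, 0.116, 0, 0.0544 and 0.122 CPM in the saline group, 0.606, 0.827, 2.23, 0 and 0.205 CPM in the OVA group and 0.413, 0.0689, 0.200, 0.336 and 0.114 CPM in the anti-IL-4Ra group. Col9a1 was thus counted in every OVA library and in no saline library, and Col11a1 was spread widely among the OVA libraries. In OVA replicate 2 Col9a1 was below the floor of 3 counts (0.0827 against 0.248 CPM). Both were called higher with OVA by edgeR without the filter (adjusted p = 0.00765 and 0.0205) and by DESeq2 (adjusted p = 0.00118 and 0.00888), and Col9a1 also with anti-IL-4Ra against saline (adjusted p = 0.0258 and 0.00811). Over all genes the 2 fits called 3073 of 20316 and 3529 of 18708 higher with OVA. For anti-IL-4Ra against saline they called 2092 of 20316 and 2652 of 18318 higher. The other 5 had no call in those fits.

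The classes also differ as shares of all collagen counts of a library, a measure that does not depend on the scaling between libraries. Fibrillar collagens made up 29.1 ± 3.68% with saline (range 25.0 to 34.2%), 44.9 ± 3.38% with OVA (range 40.5 to 48.9%) and 43.4 ± 4.97% with anti-IL-4Ra (range 36.8 to 48.0%). Basement membrane collagens made up 50.3 ± 2.94% with saline (range 47.2 to 54.0%), 29.8 ± 3.24% with OVA (range 25.5 to 33.5%) and 37.4 ± 3.41% with anti-IL-4Ra (range 33.1 to 40.8%). Neither share overlapped between saline and OVA. The other collagens held 20.6 ± 1.40%, 25.3 ± 0.567% and 19.2 ± 1.99% in the same order, and every OVA library lay above every library of the other 2 groups. This class holds Col6a5, which averaged 11.5, 300.3 and 75.7 CPM of class sums of 1447, 2165 and 1491 CPM. Whether the shares stay apart without Col6a5 was not tested. Longer transcripts give more counts, so these are shares of counts and not of molecules. Per kilobase of exon (GENCODE M21 gene models), the order with saline was Col4a1 (218 CPM per kb), Col3a1 (161), Col4a2 (156) and Col1a2 (100.2). With OVA it was Col3a1 (328 CPM per kb), Col4a1 (165), Col1a2 (157) and Col6a1 (135).

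**Figure D3:**
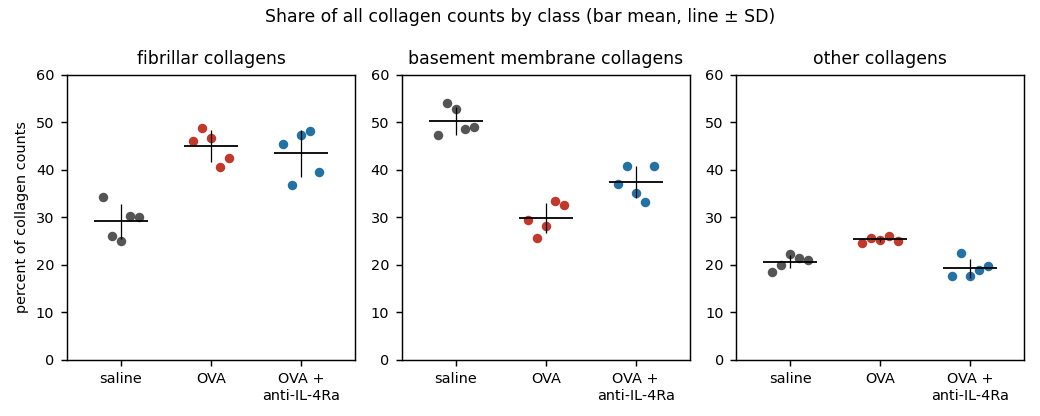
Share of all collagen counts taken by each class in each library, in percent, with the group mean as a bar and ± SD as a line. Fibrillar and basement membrane shares with OVA do not overlap those with saline. The share of the other collagens, a class that includes Col6a5, is highest in the OVA libraries, at 24.6 to 26.1%.

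Ratios of 2 collagens within a library also leave out the scaling. Ratios were tested for 12 pairs in 3 comparisons by a two-sided exact permutation test on the log2 ratio. With 5 against 5 the smallest p is 0.00794, which after Benjamini-Hochberg adjustment over the 36 tests gave 0.0476 in the 6 tests that reached it. A further 8 tests had an unadjusted p under 0.05, which brings the number to 14. The ratio of the fibrillar Col3a1 to the basement membrane Col4a1 was 0.784, 0.509, 0.429, 0.654 and 0.684 with saline, 1.86, 1.95, 1.83, 1.36 and 1.55 with OVA and 1.17, 1.07, 1.30, 1.69 and 1.07 with anti-IL-4Ra. Both ovalbumin groups lay wholly above saline (exact p = 0.00794 each, adjusted p = 0.0476). Between the ovalbumin groups this ratio overlapped (exact p = 0.0317, adjusted p = 0.0879).

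Within type VI, Col6a3 over Col6a1 was 1.201, 1.01, 1.06, 1.15 and 1.04 with saline, 0.800, 0.646, 0.773, 0.714 and 0.564 with OVA and 0.940, 0.953, 0.891, 0.835 and 1.34 with anti-IL-4Ra. The OVA libraries were below all saline and all anti-IL-4Ra libraries (exact p = 0.00794 and adjusted p = 0.0476 for both). This was the single ratio of the 12 that reached an adjusted p under 0.05 for anti-IL-4Ra against OVA, and the exact p of that comparison missed the adjusted threshold when OVA replicate 2, 4 or 5 or anti-IL-4Ra replicate 5 was left out (adjusted p up to 0.0952). Anti-IL-4Ra against saline gave an exact p of 0.246 for the same ratio. Col6a1 over Col6a2 averaged 1.31 ± 0.0527, 1.27 ± 0.170 and 1.40 ± 0.0904 in the 3 groups, with exact p values of 0.103 to 0.556.

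Within type IV, Col4a3 over Col4a1 was 0.331 ± 0.0566 with saline, 0.227 ± 0.0274 with OVA and 0.219 ± 0.0533 with anti-IL-4Ra, and the OVA libraries were all below the saline libraries (exact p = 0.00794, adjusted p = 0.0476). Col4a1 over Col4a2, the pair with a shared promoter region, was 1.43 ± 0.0353, 1.52 ± 0.0544 and 1.55 ± 0.0452. That small rise did not overlap between anti-IL-4Ra and saline (exact p = 0.00794, adjusted p = 0.0476), and did for OVA (exact p = 0.0317, adjusted p = 0.0879). Col1a1 over Col1a2 was 0.641 ± 0.0544, 0.767 ± 0.0974 and 0.694 ± 0.0780, with no adjusted p under 0.05 (exact p = 0.0317, adjusted p = 0.0879 for OVA against saline).

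**Figure D4:**
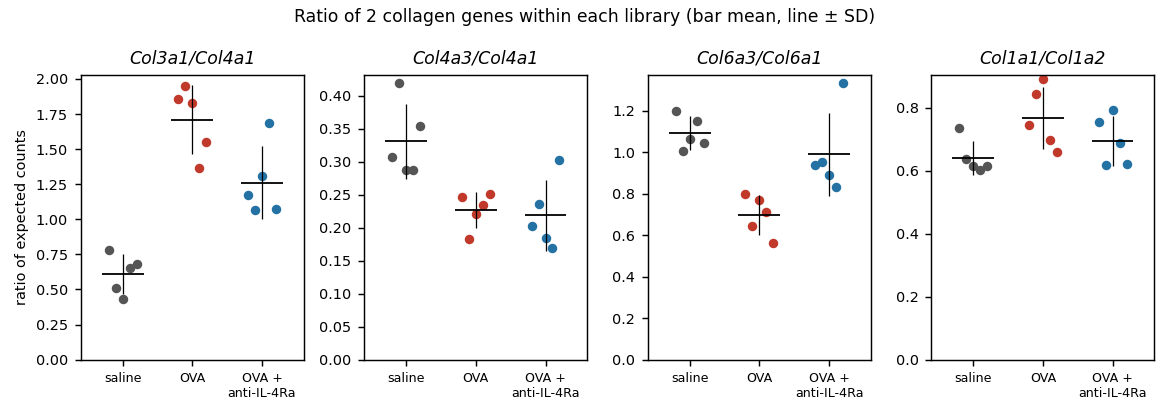
Ratio of expected counts of 2 collagen genes within each library for 4 pairs, with the group mean as a bar and ± SD as a line. Col3a1/Col4a1 rises from 0.612 with saline to 1.71 with OVA, Col6a3/Col6a1 is lowest in the OVA libraries (0.564 to 0.800), and the groups of Col1a1/Col1a2 overlap.

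Anti-IL-4Ra against OVA, the comparison that asks what the antibody changed, gave no called collagen. None of the 37 passed edgeR's test, where 0.302% of all genes did (0.138% higher and 0.163% lower). DESeq2 called 3 lower (71 of 17149 genes were) and limma-voom 0 (32 of 15905 genes were). At an unadjusted p under 0.05 there were 6 collagens, against 5.68% of all genes. The median log2 fold change was -0.21 over the fibrillar, 0.16 over the basement membrane and -0.15 over the other collagens, beside -0.002 over all genes. Col14a1 and Col24a1 were the 2 collagens whose anti-IL-4Ra libraries all lay below the OVA libraries, as 0.66% of all genes did (0.509% lay above, and 1.17% in either direction). These values share the OVA libraries with the comparison against saline.

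Of the 6 collagens, 5 were lower and 1 higher with the antibody. Col14a1 averaged 202 ± 41.0 CPM with OVA and 126 ± 25.3 CPM with anti-IL-4Ra, close to 125 ± 23.8 CPM with saline (log2 fold change -0.68 ± 0.18, adjusted p = 0.203). Col24a1 averaged 7.29 ± 1.57 and 3.68 ± 1.29 CPM (log2 fold change -0.99 ± 0.27, adjusted p = 0.268). Of the type VI chains, Col6a1 averaged 555 ± 128 and 364 ± 80.2 CPM (log2 fold change -0.61 ± 0.18, adjusted p = 0.326), and Col6a2 443 ± 120.2 and 263 ± 72.4 CPM (log2 fold change -0.75 ± 0.20, adjusted p = 0.215). The higher one was Col23a1, at 42.5 ± 11.3 and 71.0 ± 25.2 CPM (log2 fold change 0.74 ± 0.22, adjusted p = 0.344). The 3 genes that DESeq2 called were Col14a1 (adjusted p = 0.048), Col24a1 (0.0423) and Col6a2 (0.0454).

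Col6a5 completes the 6, and there 1 library decides the value. With all libraries it averaged 300.3 ± 32.6 CPM with OVA and 75.7 ± 112 CPM with anti-IL-4Ra (log2 fold change -1.99 ± 0.76, adjusted p = 0.633). Without anti-IL-4Ra replicate 4 the log2 fold change was -3.52 ± 0.59 and the gene was called (adjusted p = 0.0134). With saline replicate 1 left out too it was -3.52 ± 0.49 (adjusted p = 0.00466), and Col6a6 was then called as well (-2.08 ± 0.38, adjusted p = 0.027, against -0.58 ± 0.69 with all libraries). These 2 libraries were chosen after seeing the data. Anti-IL-4Ra replicate 4 held the Col6a5 value that opposes a fall (275 CPM, next 45.1), so a call without it is no evidence of a fall. Anti-IL-4Ra replicate 4 is the library of that group with the most adipose, Schwann cell and skeletal muscle marker counts, and Rn45s took 12.4% of it. The part of either in its Col6a5 value was not tested. DESeq2 gave no adjusted p for Col6a5.

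The large fibrillar chains gave no call between the ovalbumin groups. The log2 fold change was -0.24 ± 0.22 for Col1a1, -0.09 ± 0.17 for Col1a2, -0.21 ± 0.23 for Col3a1 and -0.24 ± 0.18 for Col5a2 (edgeR's adjusted p = 1.00 for each). The 6 type IV chains ranged from -0.001 to 0.25 and the 6 type VI chains from -1.99 to -0.11. In simulated counts at these depths, 64 of 100 genes changed 2-fold and 88 of 100 changed 4-fold were called in this comparison. The changed genes were drawn at random from all genes tested and not matched to collagens. More genes changed there than the 48 of 15905 called in the data, which eases the adjustment, so the rates for collagens may be lower. Changes of 2-fold, and some of 4-fold, could therefore pass unseen.

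Anti-IL-4Ra against saline placed the treated lungs beside unchallenged ones. Of the 37 collagens 7 were called higher and 5 lower, where 13.9% and 12.7% of all genes were (26.6% in either direction). Groups did not overlap for 2 collagens above and 4 below saline (9.53% and 10.3% of all genes, 19.8% in either direction), and 13 had an unadjusted p under 0.05 (39.6% of all genes). The same 6 fibrillar chains that were called with OVA were called here, Col1a1 (log2 fold change 0.67 ± 0.22, adjusted p = 0.0379), Col1a2 (log2 fold change 0.56 ± 0.18, adjusted p = 0.0274), Col3a1 (log2 fold change 0.81 ± 0.23, adjusted p = 0.0181), Col5a2 (log2 fold change 0.90 ± 0.18, adjusted p = 0.00232), Col11a2 (log2 fold change 1.52 ± 0.39, adjusted p = 0.0100) and Col24a1 (log2 fold change 1.93 ± 0.29, adjusted p = 0.000411). The comparison uses the saline libraries of the first one, so the 2 lists are not independent.

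The calls of Col5a2, Col11a2 and Col24a1 held in all 15 fits without 1 library, and those of Col1a1, Col1a2 and Col3a1 in 7, 10 and 13 of them. Without anti-IL-4Ra replicate 4, the log2 fold change was 0.53 ± 0.23 for Col1a1 (adjusted p = 0.0963), 0.41 ± 0.17 for Col1a2 (0.0767) and 0.58 ± 0.21 for Col3a1 (0.0512). With saline replicate 1 left out too, these 3 were called again (0.70 ± 0.22, 0.52 ± 0.17 and 0.75 ± 0.19, adjusted p = 0.0375, 0.0425 and 0.0181).

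Col6a5 was the single type VI chain called against saline, 6.53-fold higher (log2 fold change 2.71 ± 0.79, adjusted p = 0.0200). Without anti-IL-4Ra replicate 4 its log2 fold change was 1.14 ± 0.53 (adjusted p = 0.12), and without both libraries that stand apart it was 1.74 ± 0.48 (adjusted p = 0.0248). Col6a1 and Col6a2, which were called with OVA, were at 0.25 ± 0.18 and 0.17 ± 0.20 here (adjusted p = 0.301 and 0.546), and Col14a1 was at 0.01 ± 0.18 (adjusted p = 0.960). The 5 lower calls were Col4a3 (log2 fold change -0.81 ± 0.23, adjusted p = 0.0160), Col12a1 (log2 fold change -1.69 ± 0.30, adjusted p = 0.00118), Col13a1 (log2 fold change -1.13 ± 0.26, adjusted p = 0.00581), Col17a1 (log2 fold change -1.07 ± 0.25, adjusted p = 0.00703) and Col23a1 (log2 fold change -0.64 ± 0.22, adjusted p = 0.0396). The call of Col23a1 held in 8 of 15 fits without 1 library and was lost without anti-IL-4Ra replicate 4 (-0.57 ± 0.23, adjusted p = 0.0764). Without both libraries that stand apart, the calls of Col23a1 (-0.62 ± 0.24, adjusted p = 0.0889), Col4a3 (-0.77 ± 0.27, adjusted p = 0.0576) and Col11a2 (1.06 ± 0.38, adjusted p = 0.0667) were lost. Of the calls with OVA, Col4a2 and Col4a5 were not called here (log2 fold change -0.33 ± 0.18 and -0.32 ± 0.17).

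The Rn45s share moved with the groups, and a fit with its log2 as a covariate kept few calls, among collagens and among all genes. Over all 15905 genes tested it called 486 higher and 266 lower for OVA against saline, beside 3069 and 2829 without the covariate. For OVA against saline, Col24a1 stayed higher (2.19 ± 0.33, adjusted p = 0.00265) and Col12a1 stayed lower (-1.26 ± 0.34, adjusted p = 0.0482). Col5a2 (0.82 ± 0.22, adjusted p = 0.0504), Col6a2 (1.03 ± 0.28, 0.0518), Col14a1 (0.87 ± 0.24, 0.0552), Col23a1 (-0.76 ± 0.22, 0.0616), Col6a5 (2.89 ± 0.84, 0.0619) and Col6a1 (0.88 ± 0.26, 0.0626) came close to the threshold. The fibrillar median was then 0.41 and that of the other collagens 0.04, while that of the basement membrane collagens was -0.37. Anti-IL-4Ra against saline had no called collagen in that fit, where 322 of the 15905 genes were called higher and 51 lower. All OVA libraries had a higher share than all saline libraries. An effect of ovalbumin and one that goes with this share therefore cannot be told apart, for genes that kept their call as for those that lost it.

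**Figure D5:**
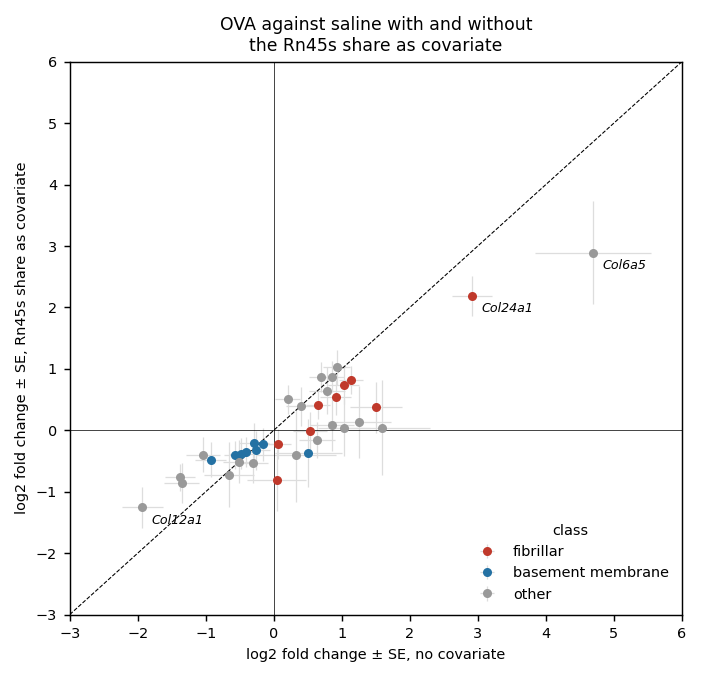
Log2 fold change ± SE with OVA against saline for the 37 tested collagens, without (horizontal) and with (vertical) the log2 Rn45s share as a covariate, with the line of equality dashed. Most points lie nearer to 0 on the vertical axis, among them Col6a5 (4.69 without and 2.89 with the covariate), and Col24a1 and Col12a1 are the 2 collagens still called.

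Genes that make, process and bind collagen mostly did not rise with the fibrillar chains. With OVA, 19.3% of all genes tested were called higher and 17.8% lower, and the lists below are to be read against those shares. Of 20 genes for modification and folding of procollagen, 1 was called higher and 9 lower (median log2 fold change -0.30), among them Leprel4, the older symbol of P3h4 (log2 fold change -1.12 ± 0.24, adjusted p = 0.00257), the collagen galactosyltransferase Colgalt2 (log2 fold change -1.07 ± 0.24, adjusted p = 0.00291), the lysyl hydroxylase Plod2 (log2 fold change -0.97 ± 0.26, adjusted p = 0.00834) and the prolyl hydroxylase subunit P4ha2 (log2 fold change -0.79 ± 0.18, adjusted p = 0.00315). The higher one was Mia3, which loads procollagen for export (0.29 ± 0.09). For removal of the propeptides, 2 of 7 tested genes were lower and none higher. Both are enhancers of the C-proteinase, Pcolce2 (218 ± 27.7 CPM (saline), 48.6 ± 21.2 CPM (OVA) and 58.3 ± 38.4 CPM (anti-IL-4Ra), log2 fold change -2.16 ± 0.40, adjusted p = 0.000838) and Pcolce (log2 fold change -0.85 ± 0.22, adjusted p = 0.00767). Of 11 genes for crosslinking and fibril assembly 2 were higher and 3 lower, near the shares of all genes. The lower ones were the lysyl oxidase Loxl1 (log2 fold change -1.01 ± 0.24, adjusted p = 0.00431), the proteoglycan Bgn (log2 fold change -0.76 ± 0.26, adjusted p = 0.0326) and Sparc (log2 fold change -0.61 ± 0.22, adjusted p = 0.0377), and the higher ones were the lysyl oxidases Loxl4 (log2 fold change 0.49 ± 0.16, adjusted p = 0.0234) and Loxl2 (0.36 ± 0.11).

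Basement membrane partners moved in the direction of the type IV chains. Of 16 such genes 12 were called lower and 1 higher with OVA, where 17.8% and 19.3% of all genes were (median log2 fold change -0.84), among them the peroxidasin Pxdn, which crosslinks type IV collagen (log2 fold change -1.19 ± 0.24, adjusted p = 0.00142), and the epithelial laminin chains Lama3 (log2 fold change -1.04 ± 0.23, adjusted p = 0.00277) and Lamb3 (log2 fold change -1.01 ± 0.20, adjusted p = 0.00150). The higher one was Lama1, a laminin chain of embryonic basement membranes (0.96 ± 0.27). Of 9 tested collagen receptors 5 were lower and none higher, led by the integrin chain Itga1 (log2 fold change -1.29 ± 0.22, adjusted p = 0.000543) and the endocytic receptor Mrc2 (log2 fold change -1.04 ± 0.24, adjusted p = 0.00346). None of the genes in these 5 lists was called for anti-IL-4Ra against OVA by edgeR, with 3 at an unadjusted p under 0.05 (1 each for modification and folding, crosslinking, and receptors). The most abundant genes of each list gave no call between the ovalbumin groups, with log2 fold changes of 0.08 ± 0.12 for P4hb, -0.03 ± 0.09 for Mia3, 0.26 ± 0.38 for Pcolce2, 0.08 ± 0.22 for Pcolce, -0.45 ± 0.31 for Fn1, 0.25 ± 0.22 for Sparc, 0.19 ± 0.22 for Hspg2, 0.14 ± 0.15 for Agrn, 0.15 ± 0.19 for Itgb1 and 0.26 ± 0.22 for Itga1. Against saline, where 13.9% of all genes were called higher and 12.7% lower, the anti-IL-4Ra group had 1 higher and 6 lower of 20 for modification and folding, 2 lower of 7 for propeptide removal, 1 lower of 11 for crosslinking, 1 higher and 9 lower of 16 basement membrane partners, and 2 lower of 9 receptors.

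Markers of the cells that make these collagens moved as well. Of 10 fibroblast markers 7 were called lower and 1 higher with OVA, where 17.8% and 19.3% of all genes were, and their summed level ran from 2045 to 2763 CPM (saline), 743 to 1524 CPM (OVA) and 740 to 2015 CPM (anti-IL-4Ra). Tcf21 (log2 fold change -1.66 ± 0.35, adjusted p = 0.00228), Npnt (log2 fold change -1.42 ± 0.33, adjusted p = 0.00361) and Pdgfrb (log2 fold change -1.14 ± 0.16, adjusted p = 0.000126) were lower and Thy1, also a T cell gene in mice, was higher (log2 fold change 1.12 ± 0.29, adjusted p = 0.00703). Of the fibrillar collagens 6 of 9 rose, while 7 of 10 fibroblast markers fell. Of 10 endothelial markers 9 were lower (summed 3947 to 5280 CPM with saline and 1620 to 3142 CPM with OVA), led by Cdh5 (log2 fold change -1.59 ± 0.32, adjusted p = 0.00146) and Kdr (log2 fold change -1.49 ± 0.23, adjusted p = 0.000295). Of 7 alveolar type 1 markers 6 were lower (summed 2622 to 3755 and 848 to 1933 CPM), led by Aqp5 (log2 fold change -1.56 ± 0.27, adjusted p = 0.000627). These are the cells whose basement membranes hold type IV collagen, and the part of these shifts in the falls of type IV and transmembrane collagens was not tested. For anti-IL-4Ra against saline, 9 of 10 endothelial, 6 of 7 alveolar type 1 and 2 of 8 smooth muscle and pericyte markers were lower. Of the fibroblast markers 4 of 10 were lower and 1 higher there, where 12.7% and 13.9% of all genes were.

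The remaining marker lists are set beside the same shares of all genes (17.8% lower and 19.3% higher with OVA). Smooth muscle and pericyte markers had 3 of 8 lower, with the pericyte gene Notch3 leading (log2 fold change -1.09 ± 0.16, adjusted p = 0.000185), and mesothelium had 1 of 5 lower (Upk3b, log2 fold change -1.44 ± 0.39, adjusted p = 0.00878). Basal cell markers, relevant to Col17a1 and Col7a1, were low, at summed levels of 3.13 to 9.03 CPM with saline and 6.75 to 11.8 CPM with OVA, with 1 of 4 tested higher (Trp63, log2 fold change 1.67 ± 0.39, adjusted p = 0.00411). Of 4 tested Schwann cell markers 1 was called higher with OVA (edgeR's adjusted p = 0.000216). For anti-IL-4Ra against saline 1 of the 4 was higher (adjusted p = 0.000933), where 13.9% of all genes were. No cardiac muscle, skeletal muscle or adipose marker was called for OVA against saline, where Myh6 averaged 606 and 518 CPM, Tnnt2 79.5 and 101, Ckm 18.3 and 13.7, Acta1 2.30 and 2.58, Cfd 129.5 and 28.4, and Adipoq 57.3 and 9.79 CPM. Cardiac muscle markers summed to 111 to 1741 CPM with OVA and 34.4 to 442 CPM with anti-IL-4Ra, and 4 of 8 were called lower for anti-IL-4Ra against saline, with Sln (log2 fold change -2.98 ± 0.84, adjusted p = 0.0173) and Myl7 (log2 fold change -2.81 ± 0.88, adjusted p = 0.0272) leading. For anti-IL-4Ra against OVA no marker was called by edgeR, but all 8 cardiac muscle markers had a log2 fold change below 0 (from -2.21 to -1.30), 7 of them at an unadjusted p under 0.05. With a cardiac marker score as covariate edgeR called 0 collagens in that comparison. It also called 0 without the score, so this count cannot show the part of cardiac tissue, which was not tested. Log2 fold changes moved in either direction, for Col1a1 from -0.24 ± 0.22 to 0.06 ± 0.23 and for Col24a1 from -0.99 ± 0.27 to -1.27 ± 0.30. The 2 most abundant fibroblast markers were at 0.27 ± 0.32 (Npnt) and 0.12 ± 0.24 (Pdgfra) on the log2 scale, those of endothelium at 0.17 ± 0.31 (Cdh5) and -0.46 ± 0.26 (Vwf), and those of alveolar type 1 cells at 0.26 ± 0.25 (Ager) and 0.14 ± 0.32 (Cav1). On the same scale those of smooth muscle were at -0.31 ± 0.26 (Myh11) and -0.41 ± 0.29 (Acta2), of mesothelium at 0.17 ± 0.32 (Msln) and 0.51 ± 0.38 (Upk3b) and of basal cells at 0.48 ± 0.46 (Ngfr) and -0.99 ± 0.39 (Trp63). The 4 tested Schwann cell markers ranged from -1.95 to 1.12, with Mbp at 0.29 ± 0.20. The 2 most abundant cartilage markers were at -0.08 ± 0.60 (Chad) and 0.34 ± 0.40 (Cytl1), of cardiac muscle at -2.06 ± 0.85 (Myh6) and -1.96 ± 0.76 (Tnnt2), of skeletal muscle at -1.77 ± 0.81 (Ckm) and -0.55 ± 1.30 (Acta1) and of adipose tissue at 1.16 ± 1.60 (Cfd) and 0.87 ± 1.53 (Adipoq).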

How the data were processed

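RNA from 15 whole lungs was measured in 3 groups of 5, grouped by the titles and treatments in the labels, which describe biological replicates (1 library per animal), so the spread behind each p-value is that between mice. The authors deposited estimated (RSEM expected) counts per gene symbol without normalization, 1 column per animal. The submitters' processing notes name RSEM 1.2.15, Bowtie2 2.1.0 and the human build hg38. Since 22542 of the 24054 symbols are current mouse RefSeq symbols, rows were read as mouse genes and the counts' build was used for no coordinates. The sources used here do not give the gene models behind the counts. The labels' protocols name both ribosomal RNA depletion and oligo-dT beads, and strand-specific dUTP libraries.

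Counts were rounded, filtered with edgeR's filterByExpr (15905 of 24054 genes kept), scaled by TMM and fitted for all 15 libraries in 1 quasi-likelihood model (edgeR 4.0.16, R 4.3.3). Tests were two-sided, with Benjamini-Hochberg adjustment over all genes tested. The SE was taken from the F statistic. Replicates differed by more than sampling noise in every pair (mean chi-square per gene at least 10.0). Between 17.0 and 20.0% of the deposited estimated counts per library were further than 0.005 from a whole number. For OVA against saline, 65 of 100 simulated 2-fold and 97 of 100 4-fold changes were called among 15812 genes. DESeq2 1.42.0, limma 3.58.1 (voom), other scalings and filters, covariates and left-out libraries were alternatives. The floor of 3 counts covers counting error only.

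The collagen genes, classes and other lists were chosen with earlier results of these data known. Values per library were given for each called collagen that was among the 8 largest fold changes of a comparison or averaged over 50 CPM in a group, and for its partner chains. Of each list up to 4 called genes with the largest fold change were named, or, where none was called, the 2 most abundant; some list members are not reported here. Older symbols matched 7 of the 191 list entries.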

Additional observations from a re-analysis of the deposited data

Results flagged for a closer look

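In each group of 5 libraries, the highest and lowest value of each tested collagen was set against the rest by Dixon's criterion (ratio of the gap to the range above 0.71), and 21 of the 111 groups stood out. The criterion would flag about 1 in 20 groups if these were independent and normally distributed. The collagens share the same libraries, so the groups are not independent and the 21 cannot be set against that rate. Anti-IL-4Ra replicate 4 held 9 of the 21. In it Col3a1 was at 2435 CPM where the next library had 1528, Col5a1 at 171 (next 115), Col5a3 at 31.8 (next 10.4), Col6a4 at 14.6 (next 6.19), Col6a5 at 275 (next 45.1), Col6a6 at 94.7 (next 15.2), Col15a1 at 176 (next 55.3), Col18a1 at 115 (next 88.9) and Col20a1 at 16.9 (next 9.42) CPM. The same library had the highest adipose (492 CPM), Schwann cell (238 CPM) and skeletal muscle (58.7 CPM) marker sums of its group, and the part of that tissue in these values was not tested.

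Saline replicate 1 was highest for Col8a1 (21.9 CPM, next 13.9), Col15a1 (111, next 39.9) and Col28a1 (3.65, next 1.31), and its adipose markers summed to 1073 CPM. Saline replicate 2 was lowest for Col6a3 (255, next 345) and Col16a1 (44.4, next 65.0). OVA replicate 5 was highest for Col7a1 (36.7, next 16.5), Col20a1 (16.5, next 9.76) and Col27a1 (47.1, next 33.2), and OVA replicate 3 for Col4a6 (4.39, next 2.87) and Col17a1 (6.35, next 4.31). OVA replicate 1 was lowest for Col6a5 (245, next 307), and anti-IL-4Ra replicate 2 highest for Col10a1 (8.33, next 7.35).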

How the results depend on the processing

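No collagen call reversed under any setting tried. Of the 21 calls for OVA against saline 16 held in all 15 fits without 1 library, and 7 of the 12 for anti-IL-4Ra against saline. With the Rn45s share as covariate the collagen calls numbered 1 higher and 1 lower for OVA against saline, and 0 and 0 for anti-IL-4Ra against saline. Of all 15905 genes, that fit called 486 higher and 266 lower, and 322 higher and 51 lower, in the same order. The fibrillar medians moved to 0.411 and 0.333, and the median of the other collagens with OVA moved to 0.043. For anti-IL-4Ra against OVA, DESeq2 called 3 collagens lower, where it called 63 of 17149 genes higher and 71 lower. Leaving out saline replicate 1 and anti-IL-4Ra replicate 4 together, chosen after seeing the data, gave 2 lower there, 3 lower for anti-IL-4Ra against saline, and a basement membrane median of -0.347 in the latter. Of 15953 genes that fit called 39 and 1580 lower in the same order. The cardiac marker score as covariate left 2 lower for anti-IL-4Ra against saline, where 702 of 15905 genes were called lower, beside 2025 without the score. The basement membrane median was -0.443 for type IV alone with OVA, and 0.172 (OVA) and 0.393 (anti-IL-4Ra against saline) for Col15a1 and Col18a1 alone. The causes were not tested.

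Leaving out 1 library gave 0 to 1 lower calls for anti-IL-4Ra against OVA, 3 to 8 higher and 4 to 5 lower for anti-IL-4Ra against saline, and basement membrane medians of -0.504 to -0.281 (OVA) and -0.349 to -0.187 (anti-IL-4Ra against saline). Of all genes tested those fits called 18 to 36 lower, then 1580 to 2461 higher and 1247 to 2400 lower, in the same order. Log2 ratios with OVA ranged from 0.946 to 1.602 (Col15a1/Col4a1), -0.705 to -0.579 (Col6a3/Col6a1), 1.384 to 1.601 (Col3a1/Col4a1), -0.585 to -0.447 (Col4a3/Col4a1), 0.074 to 0.109 (Col4a1/Col4a2) and -0.711 to -0.485 (Col4a3/Col4a4). For anti-IL-4Ra against OVA Col6a3/Col6a1 ranged from 0.38 to 0.55, and against saline Col18a1/Col4a1 from 0.291 to 0.452, Col6a3/Col6a1 from -0.273 to -0.103 and Col4a3/Col4a1 from -0.738 to -0.523. These 10 ratios crossed the threshold in at least 1 of the fits, which have fewer permutations to draw on. The replicate numbers do not pair the animals (same-numbered libraries correlated from -0.546 to 0.347), and a replicate block gave 4 higher collagens in anti-IL-4Ra against saline and 10 higher and 6 lower for OVA against saline. Of all 15905 genes the block fit called 1545 higher, and 2363 higher and 2262 lower, in the same order. Depth limits Col24a1, Col25a1, Col28a1 and Col9a3, which averaged under 2 CPM in at least 1 group, and the 7 collagens not tested.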

Other observations

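Several collagen genes are direct neighbours in the RefSeq gene order, and the values of neighbours can be set side by side. Col3a1 and Col5a2 adjoin and both rose with OVA (log2 fold change 1.03 ± 0.23 and 1.14 ± 0.18), and their ratio was 0.169 ± 0.0236, 0.177 ± 0.0329 and 0.178 ± 0.0301 in saline, OVA and anti-IL-4Ra (Col5a2 over Col3a1, exact p = 0.706 for OVA against saline). Col6a1 and Col6a2 adjoin and both rose. In the row Col6a6, Col6a5 and Col6a4 the log2 fold changes with OVA were 1.59 ± 0.70, 4.69 ± 0.86 and 1.26 ± 0.47. Col4a3 and Col4a4 adjoin, and their ratio went from 1.74 ± 0.322 with saline to 1.14 ± 0.247 with OVA and 1.18 ± 0.227 with anti-IL-4Ra (Col4a3 over Col4a4, exact p = 0.0238, adjusted p = 0.0879, and exact p = 0.0317, adjusted p = 0.0879, against saline). Col4a5 and Col4a6 also adjoin, with Col4a5 at 201 ± 14.0 CPM and Col4a6 at 3.78 ± 0.891 CPM with saline.

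Of the 37 tested collagens 12 had both their highest saline value in replicate 1 and their highest anti-IL-4Ra value in replicate 4. They were Col1a1, Col1a2, Col3a1, Col4a1, Col5a1, Col5a2, Col5a3, Col6a5, Col6a6, Col15a1, Col18a1 and Col28a1. The part of the adipose and other markers of these libraries in those values was not tested.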
